A study of Mus musculus with 8 samples.

Results

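Cytosolic ribosomal proteins are the protein part of the ribosome that translates nuclear messages. The large subunit joins amino acids and releases the growing chain through its exit tunnel, and the small subunit binds the mRNA and reads its codons. Many of their mRNAs start with a C followed by an unbroken run of C and T, the 5′ terminal oligopyrimidine (TOP) tract, through which mTOR signalling and LARP1 control how strongly the mRNA is translated, and MYC raises the transcription of ribosomal protein and ribosome assembly genes. Members were taken by name: genes with an array probe set annotated with a single symbol of the form Rpl or Rps plus a number (with a final a, l, x or y allowed), Rplp0 to Rplp2, or Rpsa. The rule found 46 of the 18193 genes measured, 24 of the large subunit and 22 of the small subunit, and each is given by its brightest probe set over all mice.

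Total RNA was taken from the carina and the adjoining distal trachea of female C57Bl/6 mice aged 14 months (old, n = 4) or 2 months (young, n = 4), and each mouse had its own Affymetrix Mouse Genome 430 2.0 array. The titles call the older animals old 1, 2, 5 and 6 and the younger ones young 3, 4, 7 and 8, and the labels give neither a transgene nor a drug. Values are deposited signals in arbitrary units, with the same 2% trimmed mean of 500.002 on each array. Differences are given as old minus young on the log2 scale, with a standard error (SE) and a p-value from limma adjusted over all 18193 genes. Because probe sets differ in how well they capture their target, signals of different genes are not compared as amounts of mRNA.

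Start regions were taken from the RefSeq promoter table (GRCm38.p6), which held 40 of the 46 genes with 48 annotated starts. Below are the 40 bases around the start for 4 genes whose annotated start lies at a C inside a TOP-like tract (Rpl35, Rps10, Rps18 and Rps6), for Rpl27a with the longest tract (20 bases), for the genes described below with an unadjusted p under 0.05 (Rpl12 and Rpl39), and for Rps4x, with no tract. Each runs 5′ to 3′ on the gene's strand with 20 bases before the start. Capitals mark the longest run that begins with C and holds at least 4 further C or T. Where runs tie in length the first is marked. This is so for Rpl39, where an equally long run after the start stays in lower case.
Rpl35, chr2:39005112-39005151, minus strand: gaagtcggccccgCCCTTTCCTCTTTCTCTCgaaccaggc
Rps10, chr17:27635225-27635264, minus strand: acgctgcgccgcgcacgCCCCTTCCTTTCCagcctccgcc
Rps18, chr17:33955646-33955685, minus strand: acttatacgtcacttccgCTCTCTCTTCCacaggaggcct
Rps6, chr4:86857348-86857387, minus strand: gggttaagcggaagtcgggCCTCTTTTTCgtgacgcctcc
Rpl27a, chr7:109519175-109519214, plus strand: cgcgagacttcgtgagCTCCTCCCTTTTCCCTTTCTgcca
Rpl12, chr2:32961692-32961731, plus strand: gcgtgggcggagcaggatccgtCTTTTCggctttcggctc
Rpl39, chrX:37085203-37085242, minus strand: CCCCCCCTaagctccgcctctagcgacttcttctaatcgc
Rps4x, chrX:102189372-102189411, minus strand: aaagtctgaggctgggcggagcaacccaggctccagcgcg

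The TOP form, a C exactly at the annotated start followed by at least 4 C or T, was present at 8 of the 48 starts (16.7%), against 2.51% of all 32851 promoters in the table. Anywhere from 20 bases before to 20 bases after the start, such a tract stood at 35 of the 48 starts (72.9%), against 45.9% of all promoters. It was missing from every annotated start of 7 genes: Rpl27, Rpl37, Rpl41, Rps28, Rps3, Rps4x and Rpsa. In the 250 bases before and 50 after the start, on either strand, the Ets core CCGGAAG occurred in 20 of 48 (41.7%), against 8.86% of all promoters, and the YY1 core AAGATGG in 7 of 48 (14.6%), against 6.34%. The end of the Ets core is the beginning of the YY1 core, so that both can cover the same bases. TATAAA occurred in 5 of 48 (10.4%), against 13.6% of all promoters. These matches describe the letters of the windows.

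No ribosomal protein gene passed an adjusted p under 0.05 in either direction. Across all genes 67 were called higher in old mice (0.368%) and 33 lower (0.181%). Among the 46 genes the smallest adjusted p was 0.19, for Rpl12. Without adjustment, p was under 0.05 and the signal higher in old mice for Rpl12 and Rpl39, and lower for none, where all genes gave 7.31% higher and 7.28% lower. Every old mouse exceeded every young mouse for Rpl12 alone, and no gene lay lower in every old mouse, against 5.02% and 5.11% of all genes. In the other 45 genes the signals of old and young mice overlapped.

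The differences were small in both subunits. The median old minus young difference was -0.02 on the log2 scale over the 24 large subunit genes (10 positive, 14 negative) and -0.0074 over the 22 small subunit genes (10 positive, 12 negative), beside -0.0047 over all genes. The 95% interval of the difference lay within 1.2-fold either way for 29 of the 46 genes and within 1.5-fold for 41. Over all 18193 genes these counts were 2493 and 10681. The plots of signals and of differences by gene show a dense group of 34 genes with a mean signal above 8192 and narrow intervals, and 12 genes with a lower signal. That boundary was chosen after the values were seen: the nearest genes on either side were Rps19 with a mean of 8244 and Rpl37 with 2359. For the 34 bright genes the intervals ran from 0.807-fold to 1.30-fold, and 27 of them lay within 1.2-fold. Of the 265 other genes with a mean signal above 8192, 135 lay within 1.2-fold, so narrow intervals were also common among other bright genes. The brightest 1% of all genes held 29 of the 46. Whether signals so near the top of the scale follow the amount of mRNA in full was not tested.

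**Figure D1:**
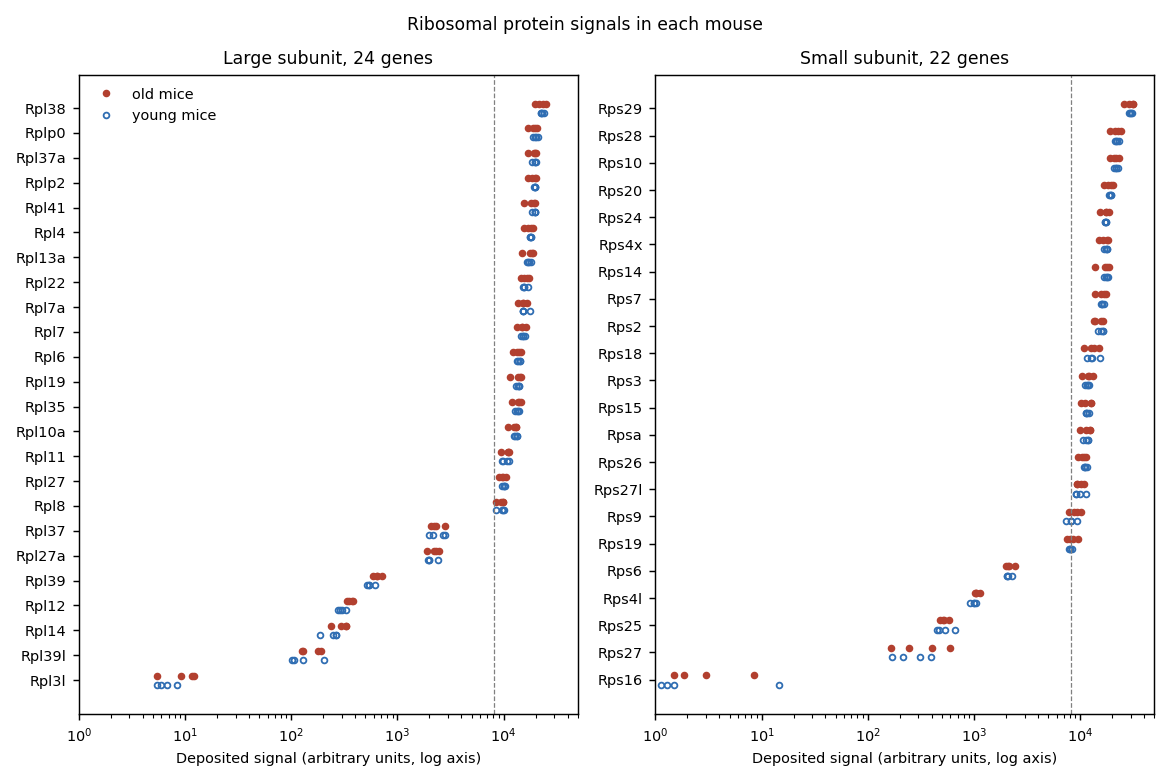
Deposited signal (log axis) of each ribosomal protein gene in the 4 old mice (filled, upper row of each gene) and the 4 young mice (open, lower row), ordered by mean signal within the large and small subunit. The dashed line marks a signal of 8192, above which 34 of the 46 genes lie, and old and young points overlap in 45 genes.

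**Figure D2:**
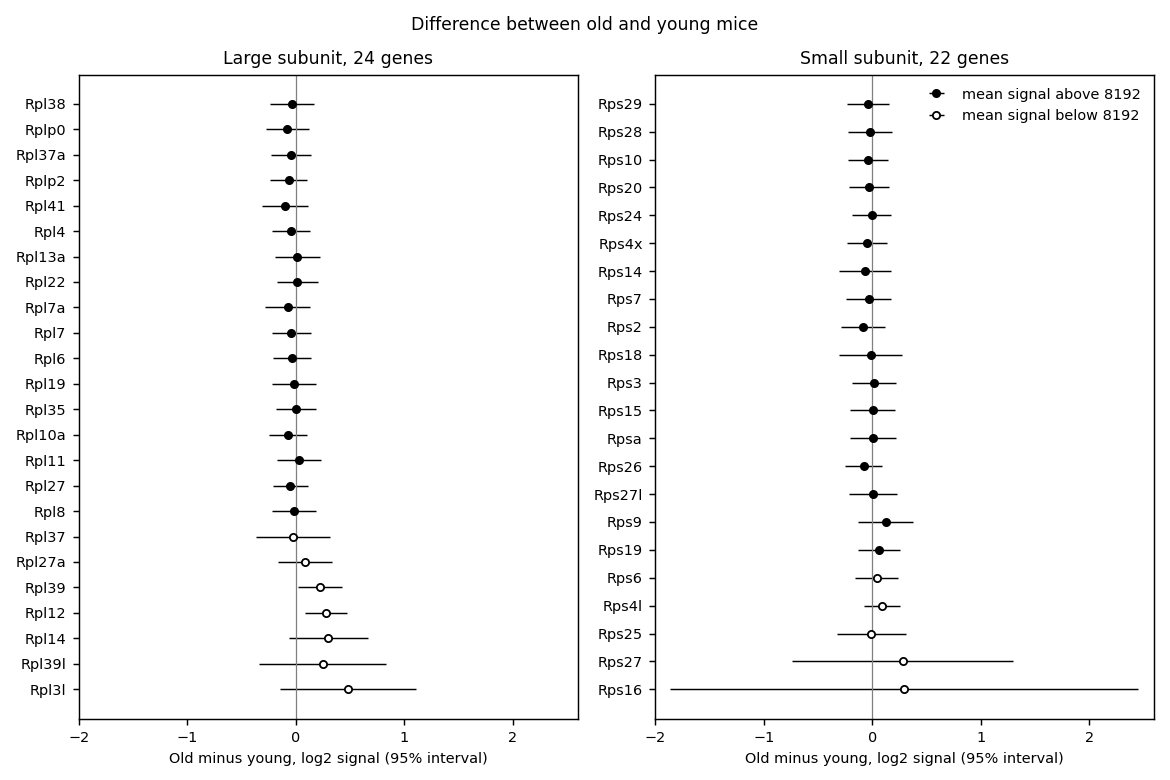
Old minus young difference on the log2 scale with its 95% interval for each gene of the large and small subunit (n = 4 old and 4 young mice). Filled points are the 34 genes with a mean signal above 8192, and only the intervals of Rpl12 and Rpl39 leave out 0.

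The stalk of the large subunit recruits the elongation factors to the ribosome. Its base protein Rplp0 had signals of 16874, 18715, 19866 and 20516 in old mice 1, 2, 5 and 6, against 19893, 20061, 18756 and 21254 in young mice 3, 4, 7 and 8. The difference was -0.08 (SE 0.084, adjusted p = 0.738), and the ranges overlapped. Rplp2, an acidic protein of the stalk, measured 17020, 18424, 19568 and 20115 in old mice, against 19708, 19849, 19238 and 19592 in young mice, a difference of -0.06 (SE 0.072, adjusted p = 0.745). For both genes old mouse 1 was the lowest of the 8 mice.

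Rpl12 lies at the base of the same stalk and was the gene with the smallest p. Its signals were 383, 352, 374 and 336 in old mice, against 290, 302, 273 and 329 in young mice. The lowest old mouse was thus above the highest young mouse, by a margin of 336 against 329. The difference was 0.28 (SE 0.083, adjusted p = 0.19), a 1.21-fold higher signal with a 95% interval from 1.06 to 1.39.

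Rpl11 binds the 5S rRNA together with Rpl5 and, when free of the ribosome, inhibits Mdm2, the ligase that marks p53 for degradation. Its signals were 9389, 11048, 10983 and 11248 in old mice, against 9697, 9971, 10829 and 11270 in young mice. Old mouse 1 stood apart below the other old mice, and the difference was 0.03 (SE 0.089, adjusted p = 0.917). Of the 6 stalk and 5S genes listed, 4 were measured, with a median difference of -0.02 and none past an adjusted p under 0.05.

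Rpl4, Rpl19, Rpl35 and Rpl39 line or surround the polypeptide exit tunnel and were the 4 of 8 listed tunnel genes that were measured. Rpl4, which reaches into the tunnel wall, measured 15609, 16980, 17999 and 18802 in old mice, against 17563, 18020, 17571 and 18051 in young mice, a difference of -0.04 (SE 0.075, adjusted p = 0.854). Rpl39, a very small protein of the tunnel wall, measured 648, 710, 639 and 587 in old mice, against 539, 610, 541 and 520 in young mice. The old and young mice overlapped only through old mouse 6 and young mouse 4. The difference for Rpl39 was 0.23 (SE 0.086, adjusted p = 0.288), while those of Rpl19 and Rpl35 were -0.02 and 0.0039.

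Among the other large subunit genes, Rpl38 had the highest signals, with 19918, 21610, 23645 and 24932 in old mice, against 22853, 22447, 22533 and 24085 in young mice. Rpl38 is known from mouse mutants with a homeotic change of the axial skeleton. Its difference was -0.03 (SE 0.086, adjusted p = 0.898), with the young mice inside the range of the old mice. Rpl13a, often a reference gene in quantitative PCR, measured 14974, 17633, 18569 and 18750 in old mice, against 17041, 17268, 16685 and 17922 in young mice, a difference of 0.02 (SE 0.088, adjusted p = 0.959).

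In the small subunit the 8 of 10 listed genes of the mRNA channel and decoding site that were measured had a median difference of -0.02, and none passed the test. Rps3, which sits at the mRNA entry of the channel, measured 10360, 11768, 12170 and 13198 in old mice, against 11718, 11155, 11943 and 12121 in young mice. Its difference was 0.01 (SE 0.087, adjusted p = 0.965). Rps26, near the mRNA exit, measured 9625, 10395, 10848 and 11401 in old mice, against 11100, 11509, 10890 and 11100 in young mice, a difference of -0.08 (SE 0.073, adjusted p = 0.673). Rps9, which takes part in decoding accuracy, had the largest difference among the bright genes, 0.12 (SE 0.109, adjusted p = 0.668). It measured 7803, 9241, 8757 and 10227 in old mice, against 7342, 8229, 9298 and 8195 in young mice. A nearly as bright probe set of Rps9 (mean log2 signal 13.05 against 13.07) differed by -0.0061, and a dim one by 0.06. The old and young ranges overlapped in all 3 genes.

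Rps18, another common reference gene, measured 10920, 12582, 13620 and 15010 in old mice, against 12642, 11697, 12920 and 15327 in young mice. Its within-group spread was the widest among the bright genes (SE 0.125), and its difference was -0.02 (adjusted p = 0.971). The highest signals of all 46 genes were those of Rps29, with 25605, 28559, 31121 and 31250 in old mice, against 29591, 30644, 29020 and 30161 in young mice, a difference of -0.04 (SE 0.082, adjusted p = 0.871). Rps28, a small protein at the mRNA exit, differed by -0.02 (SE 0.086, adjusted p = 0.932).

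Rps6, the ribosomal protein phosphorylated by S6 kinase downstream of mTOR, measured 2017, 2136, 2102 and 2443 in old mice, against 2029, 2076, 2051 and 2296 in young mice. The difference was 0.04 (SE 0.084, adjusted p = 0.875). Rpsa, which is also a laminin-binding protein of the cell surface, measured 9971, 11292, 12402 and 12358 in old mice, against 11799, 11955, 10640 and 11324 in young mice, a difference of 0.0055 (SE 0.092, adjusted p = 0.987). In both genes young values lay between those of the old mice. When a gene's probe sets were averaged the difference was -0.20 for Rps6 (adjusted p = 0.498) and -0.44 for Rpsa (adjusted p = 0.684).

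Loss of a copy of certain ribosomal protein genes causes Diamond-Blackfan anaemia in humans, in which red cell production fails. Of 15 genes listed, 10 were measured, with a median difference of -0.03 and none past an adjusted p under 0.05. Rps19, the gene most often affected, measured 7581, 8091, 8617 and 9478 in old mice, against 8021, 7946, 7903 and 8449 in young mice. Its difference was 0.06 (SE 0.084, adjusted p = 0.803), with a range in old mice that covered that of the young mice.

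The paralogs whose symbols end in l were Rpl3l, Rpl39l, Rps27l and Rps4l. Rpl3l, which replaces Rpl3 in striated muscle, was near the bottom of the scale, with 5.44, 12.1, 9.13 and 11.7 in old mice, against 5.47, 6.00, 6.72 and 8.40 in young mice. The fitted difference was 0.48 (SE 0.269, adjusted p = 0.463), and at a floor of 64, above all 8 signals, no difference remained to be measured. Rpl39l, best known from male germ cells, measured 126, 130, 192 and 179 in old mice, against 102, 202, 106 and 130 in young mice, a difference of 0.25 (SE 0.251, adjusted p = 0.711). In both the old and young values were interleaved.

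Rps27l, a p53-induced paralog of Rps27, measured 9372, 10092, 9316 and 10768 in old mice, against 9126, 9086, 11243 and 9943 in young mice, a difference of 0.0084 (SE 0.095, adjusted p = 0.979). Rps27 itself ranged from 166 to 600 in old mice, against 170 to 396 in young mice, and its difference of 0.28 had an SE of 0.439 (adjusted p = 0.821). Rps4l measured 1130, 1012, 1039 and 1051 in old mice, against 925, 1055, 998 and 1006 in young mice, a difference of 0.09 (SE 0.071, adjusted p = 0.627), beside -0.05 (SE 0.080, adjusted p = 0.825) for its X-linked parent Rps4x. None of these paralogs passed the test, and the difference between a paralog and its parent was not tested.

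The remaining dim genes included Rps16, whose single probe set of 1 symbol was close to zero, with 1.86, 1.51, 3.03 and 8.47 in old mice, against 1.48, 1.28, 1.14 and 14.7 in young mice. Only 0.154% of genes were as dim, so that these values are no measure of the Rps16 mRNA. Over the 12 dim genes the median difference was 0.24, with 10 positive and 2 negative, beside -0.0031 over the 16303 other genes in the same range of signal. With signals raised to a floor of 64 the median of these 12 genes was 0.09 (8 positive, 2 negative). With no floor, the median was 0.24 without old mouse 1, 0.14 without old mouse 2, 0.18 without old mouse 5 and 0.12 without old mouse 6. It was 0.10 without young mouse 3, 0.14 without young mouse 4, 0.12 without young mouse 7 and 0.20 without young mouse 8.

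The 46 genes had 100 probe sets, and 23 genes had more than 1. For 16 of the 46 the brightest probe set was of a cross-hybridizing type (suffix _x_at or _s_at). Rps29, Rpl38, Rpl13a and Rps18 were among these. In 14 of these 23 the probe sets did not all have the same sign, and in 9 they did. Of the 62 probe sets with a mean signal above 8192, 19 were positive and 43 negative, with a median of -0.02 and a range from -0.13 to 0.17. The other 38 held 26 positive and 12 negative differences, with a median of 0.07 and a range from -0.89 to 1.26. No probe set passed the adjustment over all probe sets. Every old mouse exceeded every young mouse in 3 of the 100 probe sets and lay below in 0. Over all genes, with 1 probe set each, the shares were 5.02% and 5.11%.

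For Rpl41, which encodes an extremely short basic protein, the brightest probe set measured 15547, 18082, 19336 and 19774 in old mice, against 19781, 19699, 18439 and 19658 in young mice, a difference of -0.10. The dimmest of its 4 probe sets measured 469, 398, 456 and 369 in old mice, against 308, 313, 344 and 317 in young mice, a difference of 0.39 (SE 0.104, adjusted p over all probe sets 0.248). These 2 probe sets of the same gene thus pointed in opposite directions, and only the dim probe set separated old from young mice.

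For Rpl13a the dimmest of 4 probe sets measured 1841, 2046, 1970 and 2062 in old mice, against 1748, 1651, 1718 and 1528 in young mice, a difference of 0.25 (SE 0.085, adjusted p over all probe sets 0.34). The other 3 lay between -0.06 and 0.04. For Rps24 the dim pair of its 6 probe sets differed by 0.25 and 0.31 and the brightest by -0.0073, with overlapping ranges in each. The probe set plot shows these cases beside Rpl12 and Rpl39, each known from a single dim probe set. Rpl41 and Rps24 were named after their values were seen. Dim probe sets of some other genes were lower in old mice, with -0.43 for Rps6 and -0.89 for Rpsa, and overlapping ranges in both. Among all 38 dimmer probe sets, 26 differences were positive and 12 negative. Which sequences each probe set captures was not tested.

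**Figure D3:**
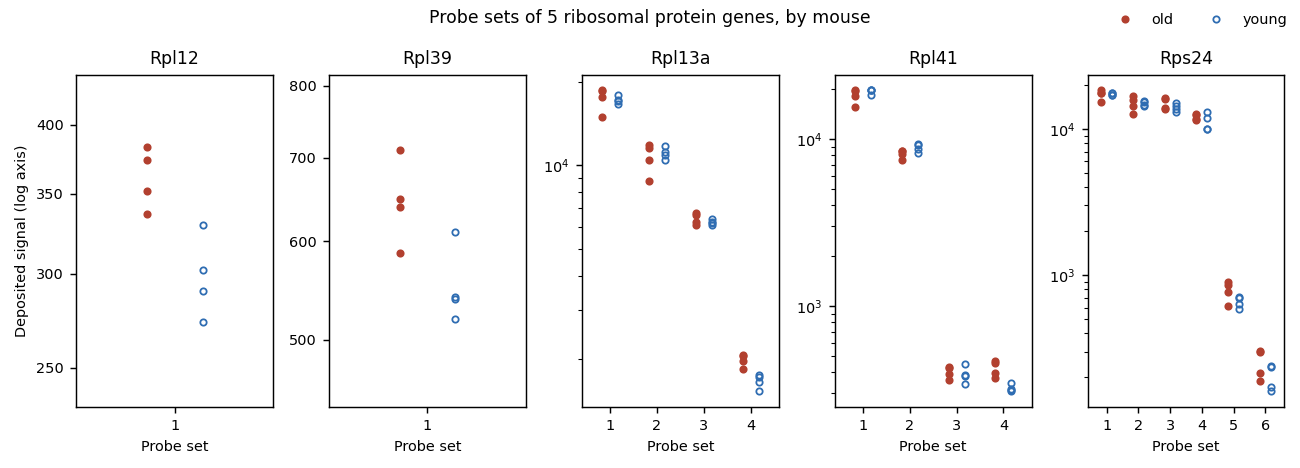
Deposited signal (log axis, scaled to each panel) of every single-symbol probe set of Rpl12, Rpl39, Rpl13a, Rpl41 and Rps24, numbered within a gene by mean signal, in old mice (filled, left) and young mice (open, right). Old mice lie above all young mice for Rpl12 and for the dimmest probe set of Rpl13a and Rpl41, while the brightest probe set of the last 2 genes overlaps.

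A further 110 probe sets carried a ribosomal protein symbol together with other symbols and were left out by the rule. They named 43 symbols, 28 of which had no probe set of their own, among them Rpl3, Rpl5 and Rplp1. Their median difference was -0.03, with 39 positive and 71 negative, and none passed an adjusted p under 0.05. Fau, whose product is cut into ubiquitin-like Fubi and ribosomal protein Rps30, lies outside the naming rule and differed by -0.04 (SE 0.092, adjusted p = 0.879). Rpl22l1, a paralog of Rpl22, differed by -0.04 (SE 0.080, adjusted p = 0.858). Rpl7l1, which takes part in large subunit assembly, measured 1346, 1281, 1364 and 1197 in old mice, against 1045, 978, 1142 and 1148 in young mice, a difference of 0.27 (SE 0.082, adjusted p = 0.201), with every old mouse above every young mouse.

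For each gene the log2 signal was set against its mean over the 8 mice, and the median over the genes was taken per mouse. For the large subunit it was -0.17, -0.01, 0.05 and 0.09 in old mice 1, 2, 5 and 6, against -0.02, 0.03, -0.03 and 0.04 in young mice 3, 4, 7 and 8. For the small subunit it was -0.18, -0.03, 0.05 and 0.12 in old mice, against 0.0051, -0.03, -0.02 and 0.04 in young mice. Both subunits lay on the same side of 0 in 6 of the 8 mice and differed in young mice 3 and 4. With the bright genes alone the subunits lay on the same side in every mouse. Their large and small subunit medians were 0.0010 and 0.0073 in young mouse 3, and 0.03 and 0.02 in young mouse 4. The extremes were both old: mouse 1 was the lowest and mouse 6 the highest in each subunit, and the young mice lay between them.

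The shift of old mouse 1 was shared by nearly all bright genes. It had the lowest signal of the 8 mice in 31 of the 34 bright genes (91.2%) and was above a gene's mean in 0 of them. Old mouse 6 was the highest in 23 of the 34. Of the 265 other genes with a mean signal above 8192, old mouse 1 was the lowest in 129 (48.7%), and of all 18193 genes in 2383 (13.1%). Old mouse 6 was the highest in 67 of these 265 genes and in 2391 of all 18193. In the same 265 genes, old mouse 1 was below the gene's mean in 219 and old mouse 6 above it in 197. The plot of each mouse's deviations shows the 17 large and 17 small subunit genes moving as tight groups.

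**Figure D4:**
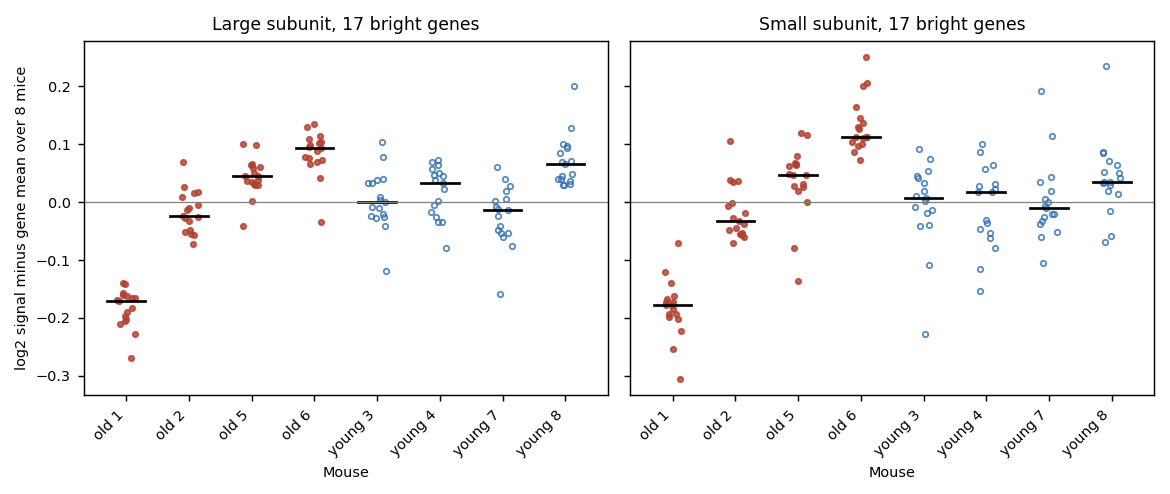
Log2 signal minus the gene's mean over the 8 mice for the 17 bright large subunit genes and the 17 bright small subunit genes in each mouse, with old mice filled and at left, young mice open, and black bars at the median. Old mouse 1 lies below 0 for all 34 genes and old mouse 6 above 0 for 33.

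The sign of the medians, which lay near 0, depended on single mice and on scaling. Without old mouse 1 the median was 0.03 for the large and 0.04 for the small subunit. In that fit 36 of the 46 differences were positive and 10 negative, in place of 20 and 26, and the median of the bright genes was 0.02 in place of -0.03. Within mouse numbers 1 to 4, old minus young had a median of -0.09 over the 46 genes, and within mouse numbers 5 to 8 it was 0.06. Without young mouse 8 the small subunit median was 0.0082 and the large subunit median -0.0099. Quantile normalization gave medians of 0.0017 and 0.0049 for the large and small subunit, with 24 positive and 22 negative differences. No setting called a ribosomal protein gene at an adjusted p under 0.05.

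The array of old mouse 1 was also low at the top of its scale. Its highest signal was 30456, against 32980 to 38636 on the other arrays, and its 99th percentile was 9006, against 9267 to 9963. The hybridization controls BioDn and CreX gave 7366 and 18808 there, against 8559 to 9679 and 20269 to 23945 elsewhere. BioB gave 896, close to the 908 of old mouse 2, in a range of 896 to 1133 in old mice and 1080 to 1247 in young mice. For BioC old mouse 2 was the lowest with 1984, and old mouse 1 gave 2071. The 3′ to 5′ signal ratio of beta actin was 1.13 for old mouse 1, in a range of 1.13 to 1.30 in old mice and 1.31 to 1.46 in young mice. That of Gapdh overlapped, with 0.704 to 0.746 in old mice and 0.667 to 0.794 in young mice. The part of these measures in the ribosomal protein signals was not tested.

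The tissue was bulk, so fewer cells of a type and less RNA per cell cannot be told apart. Summed signals of some marker genes did not overlap between the ages. Those of B and plasma cells (5 of 6 genes measured) were 4544 to 15502 in old mice and 532 to 1154 in young mice. Those of T cells (3 of 4) were 490 to 876 in old mice and 303 to 376 in young mice. The sums of basal cell markers (5 of 5) were 13053 to 16646 in old mice and 10745 to 12592 in young mice. A sum weighs the brightest markers most, and the dimmest basal marker, Krt14, had a mean signal of 51. In mice older than these, the paper counted a smaller proportion of Krt5+ basal cells in the surface epithelium than in young mice. That count was of stained cells along part of the trachea and left out cells below the surface epithelium. The RNA here came from bulk tissue of the distal trachea and carina. The thymus markers Rag1 and Ptcra overlapped, with sums of 11 to 440 in old mice and 11.5 to 54.8 in young mice, as did smooth muscle markers (4 of 4), with 57015 to 65719 in old mice and 64417 to 73446 in young mice, and the thyroid marker Tg, with 134 to 230 in old mice and 44.5 to 177 in young mice. Fibroblast markers (4 of 4) summed to 38214 to 40627 in old mice and 48698 to 55452 in young mice. By gene, 1 B and plasma cell marker passed an adjusted p under 0.05, and no T cell, basal or fibroblast marker did. The part of these cell types in the ribosomal protein values was not tested. Secretory, ciliated and cartilage markers were all measured with mean signals of at least 840, and their sums overlapped between the ages. Those of endothelial, skeletal muscle and adipose markers overlapped as well.

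Other genes of translation were read in the same fit from lists of known function. These lists were chosen with earlier results of these data known. None of the listed genes passed an adjusted p under 0.05. The 76 mitochondrial ribosomal protein genes, which build the separate ribosome of mitochondria, had a median difference of 0.03. Of these, 3 were higher and 3 lower at an unadjusted p under 0.05 (7.31% and 7.28% over all genes). Every old mouse exceeded every young mouse in 4 of the 76 (5.26%) and lay below in 2, against 5.02% and 5.11% of all genes. Mrpl3 measured 848, 857, 810 and 915 in old mice, against 745, 669, 699 and 704 in young mice, a difference of 0.28 (SE 0.069, adjusted p = 0.128). Mrps6 differed by 0.27 (SE 0.076, adjusted p = 0.17), and both had every old mouse above every young mouse.

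Translation factors and other proteins whose mRNAs also carry TOP tracts (17 of 18 measured) had a median of -0.07. Of these, 0 were higher and 1 lower at an unadjusted p under 0.05 (7.31% and 7.28% over all genes). That 1 was Eif4b, a cofactor of the helicase Eif4a, with 3310, 3573, 3756 and 4182 in old mice, against 4115, 4358, 4110 and 4805 in young mice, a difference of -0.23 (SE 0.095, adjusted p = 0.318). Hnrnpa1, an RNA-binding protein, differed by -0.24 (SE 0.112, adjusted p = 0.382). The ranges overlapped in both.

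Initiation factors (25 of 30 measured) had a median of 0.02. Of these, 2 were higher and 0 lower at an unadjusted p under 0.05 (7.31% and 7.28% over all genes). Eif1a, which helps the small subunit to scan for the start codon, measured 2209, 2196, 1991 and 2229 in old mice, against 1335, 1430, 1883 and 1587 in young mice, a difference of 0.48 (SE 0.115, adjusted p = 0.126). Eif5b, which joins the subunits, differed by 0.26 (SE 0.111, adjusted p = 0.338). Both had every old mouse above every young mouse, as the only 2 of the 25 (8%), against 5.02% of all genes.

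Ribosome assembly factors and RNA polymerase I genes (49 of 50 measured) had a median of 0.17, with 39 positive and 10 negative differences, 11 higher and 0 lower at an unadjusted p under 0.05 (7.31% and 7.28% over all genes), and 7 (14.3%) with every old mouse above every young mouse (5.02% over all genes). Rrp12, which takes part in export and maturation of the subunits, measured 158, 128, 123 and 127 in old mice, against 82.3, 61.7, 87.4 and 89.6 in young mice, a difference of 0.75 (SE 0.143, adjusted p = 0.0772). Rrs1, which brings the 5S particle with Rpl5 and Rpl11 into the large subunit precursor, measured 1342, 1224, 1404 and 1317 in old mice, against 936, 913, 1028 and 1028 in young mice, a difference of 0.44 (SE 0.077, adjusted p = 0.0642). The groups of mice were clearly apart in both, although neither passed the adjusted test over all genes. Fbl, which methylates rRNA, differed by 0.35 (adjusted p = 0.087), and Ddx21, Nolc1, Nop16 and Gnl3 were the other 4 genes without overlap. Within mouse numbers 1 to 4 the median of the 49 genes was 0.20, and within 5 to 8 it was 0.11. A test of the difference between these genes and the ribosomal protein genes was not made. The B and plasma, T, basal and fibroblast marker sums and the beta actin ratio given above also separated the ages, and their part in the values of the assembly genes was not tested.

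The genes of MYC and mTOR control (19 of 20 measured) had a median of -0.03. Of these, 1 was higher and 3 lower at an unadjusted p under 0.05 (7.31% and 7.28% over all genes). Myc measured 171, 187, 163 and 159 in old mice, against 81.3, 113, 110 and 129 in young mice, a difference of 0.67 (SE 0.144, adjusted p = 0.101), with every old mouse above every young mouse. Akt1s1, a subunit of mTOR complex 1, measured 735, 782, 946 and 737 in old mice, against 981, 1015, 896 and 959 in young mice, a difference of -0.27 (SE 0.10, adjusted p = 0.271). Old mouse 5 and young mouse 7 overlapped for Akt1s1, and with the mean of its probe sets the difference was 0.080 (adjusted p = 0.942). Larp1, the TOP-binding repressor, differed by 0.07 (adjusted p = 0.779).

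**Figure D5:**
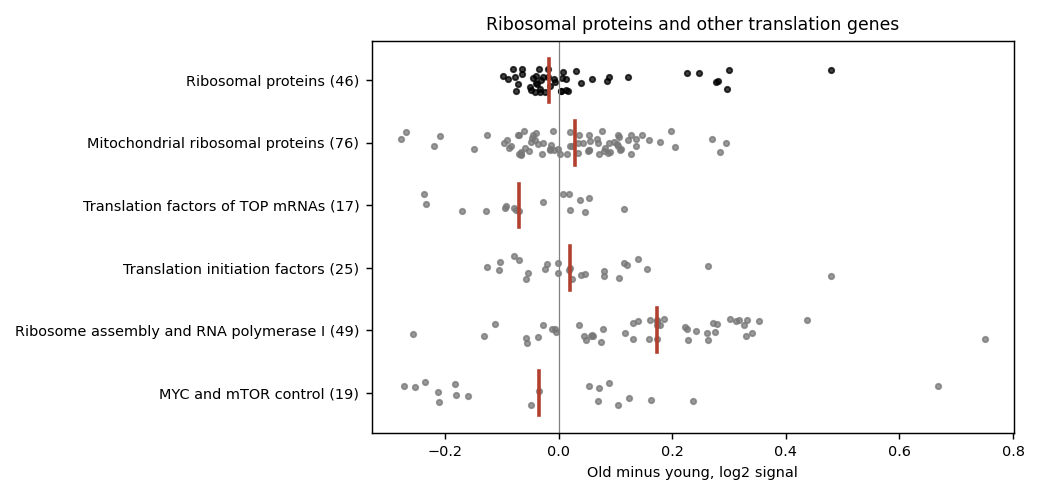
Old minus young difference on the log2 scale for each gene of 6 gene lists (points) with the list median (bar) and the number of genes measured in brackets. Most of the 46 ribosomal protein genes lie within 0.12 of 0, and the assembly and RNA polymerase I list has its median at 0.17. The list labelled as translation factors of TOP mRNAs also holds other proteins, such as Hnrnpa1.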

How the data were processed

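The deposited table held 45101 probe sets of 8 arrays as linear signal intensity; per the labels Partek was used, and the paper names RMA, but linear values with an equal 2% trimmed mean have the form of single-array scaling, so the authors' normalization could not be settled. Intensities were used as deposited, in log2. Left out were 64 control probe sets, 9160 without a symbol and 932 with several in the platform annotation. Each symbol kept its brightest probe set. Old and young mice, separate animals, were compared with limma 3.58.1 in R 4.3.3 (two-sided, Benjamini-Hochberg over all genes). The fitting step was tested on simulated data with known changes. The number of arrays limits precision. Alternatives were leaving out each mouse, other normalization, block, variance models, weights, probe set choices, a filter and a floor. Members and lists were chosen with earlier results of these data known. Named were, by rule, genes past the adjusted threshold, the largest changes without overlap, the 2 brightest and 2 dimmest of each subunit, paralogs with parents, certain genes of known role, and the 2 smallest p of each other list. Other genes were named after their values were seen. Motif searches and plots used Python 3.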

Additional observations from a re-analysis of the deposited data

Results flagged for a closer look

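Among 52 groups of 4 mice looked at, 2 held a mouse whose gap to the others took most of the group's range, and chance alone flags about 5% of such groups. For Rpl11, old mouse 1 had a signal of 9389, against 10983 to 11248 in the other old mice. For Rps16, young mouse 8 had 14.7, against 1.14 to 1.48 in the other young mice, all near the bottom of the scale.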

How the results depend on the processing

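No ribosomal protein gene was called under any alternative, and the smallest adjusted p of a named one was 0.119. Leaving out 1 mouse at a time gave medians of -0.05 to 0.03 for large and -0.06 to 0.04 for small subunit genes, and the higher ends come from leaving out old mouse 1. The large subunit median was 0.02 with the mean of all probe sets, and the small subunit median 0.0094 without cross-hybridizing probe set types (suffix _x_at or _s_at). Of 657 values of the named genes under alternatives, 7 were gained as calls and 39 changed sign, 3 of them by more than the spread within groups. With the mean of all probe sets Akt1s1 was 0.080 (adjusted p = 0.942), Rps6 -0.20 (0.498) and Rpsa -0.44 (0.684), as their dim probe sets then count equally. The calls gained were Rrs1 (adjusted p = 0.0109 with a trended prior, 0.0101 among genes above the median signal, 0.0307 with a floor of 64), Eif1a (0.0271 with the trended prior, 0.0289 above the median signal) and Mrpl3 (0.0433 above the median signal, 0.0468 with the floor). Over all genes, 67 higher and 33 lower calls became 270 and 217 with the trended prior, 221 and 220 above the median signal, 140 and 119 with the floor, 42 and 24 with the block of mouse numbers, 40 and 31 with ordinary analysis of variance, 46 and 11 with the mean of probe sets, and 8 to 24 and 3 to 24 without 1 mouse. The cause was not tested. No paired analysis was possible because old and young mice share no replicate number.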
